A study of Mus musculus with 8 samples.

Results

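The 4 Notch receptor genes (Notch1, Notch2, Notch3 and Notch4) and the 5 genes of their DSL ligands (Dll1, Dll3, Dll4, Jag1 and Jag2) were examined in the map of histone H3 lysine 56 acetylation (H3K56ac) of mouse muscle stem cells (MuSCs). They were chosen by name, as 9 of the 21938 protein-coding genes of the GENCODE annotation, and the peaks that overlapped a gene body or the 20 kb on either side of it were taken, which gave 97 of the 105600 peaks of the deposited list (49 at the receptors and 48 at the ligands). The study compared freshly isolated MuSCs of Control (wild type) and Sirt6mKO mice, all on the C57BL/6 background, by chromatin immunoprecipitation and sequencing with an antibody against H3K56ac, with 2 H3K56ac and 2 input libraries per genotype. SIRT6 is a histone deacetylase, and Sirt6mKO mice lack it because Sirt6 fl/fl was deleted by a constitutively active Cre under the Pax7 promoter (Pax7-ICNCre), that is, in the whole skeletal muscle lineage and not in adult MuSCs alone. According to the methods of the study, cells positive for Sca1, CD45 or CD31 (markers of stromal, blood and endothelial cells) were first depleted. MuSCs were then sorted by flow cytometry as Integrin-a7+/CD34+ cells or on a fluorescent reporter. The age and sex of the mice are not given in the labels. The study states an age range and male sex for the figure that shows these data, not for single libraries. The deposited list merges the peaks of the libraries into a single set of intervals. It names no genotype and gives every interval a score of 0, so that Control and Sirt6mKO were not compared here. The study gives read numbers per library, but the list does not show which libraries entered it or the depth at a peak. Each value below is a single measurement with no replicate spread. An interval can also be wider in the merged set than in any library that entered it. According to the study, Sirt6mKO MuSCs had more H3K56ac peaks than Control. The study also describes the peaks after Sirt6 loss as far broader than those of other histone marks. Whether the widths and ranks below hold for Control cells alone was not tested. The list does not show whether a peak was present in all of the sorted cells or in a fraction of them.

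Notch receptors are single-pass transmembrane proteins. A DSL ligand on a neighbouring cell pulls on the receptor, which is then cut by an ADAM protease and by gamma-secretase, and the released intracellular domain joins the DNA-binding protein RBPJ and Mastermind coactivators to switch on Hes and Hey genes. In adult muscle this pathway is known for keeping MuSCs quiescent and in their niche. H3K56ac is a mark of the globular domain of histone H3, found at active promoters and enhancers.

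The sequence just before the start site of the 4 receptors is shown first, because 3 of them lay wholly within a broad peak and Notch4 did not, with Dll4 as a ligand whose start site was covered by a narrow peak. The sequences are from RefSeq (GRCm38.p6, the build that mm10 stands for) and run 5' to 3' on the strand of the gene up to the base before the RefSeq or the GENCODE start site, whichever comes first. Capitals mark CpG dinucleotides. They lie at chr2:26503823-26504072 (minus strand) for Notch1, chr3:98013288-98013537 (plus strand) for Notch2, chr17:32166891-32167140 (minus strand) for Notch3, chr17:34564045-34564267 (plus strand) for Notch4 and chr2:119325534-119325783 (plus strand) for Dll4.
Notch1: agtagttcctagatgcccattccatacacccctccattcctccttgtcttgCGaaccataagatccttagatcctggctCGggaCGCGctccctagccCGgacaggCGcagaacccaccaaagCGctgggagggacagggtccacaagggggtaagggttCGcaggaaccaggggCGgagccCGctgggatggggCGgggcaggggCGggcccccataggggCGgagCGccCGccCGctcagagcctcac
Notch2: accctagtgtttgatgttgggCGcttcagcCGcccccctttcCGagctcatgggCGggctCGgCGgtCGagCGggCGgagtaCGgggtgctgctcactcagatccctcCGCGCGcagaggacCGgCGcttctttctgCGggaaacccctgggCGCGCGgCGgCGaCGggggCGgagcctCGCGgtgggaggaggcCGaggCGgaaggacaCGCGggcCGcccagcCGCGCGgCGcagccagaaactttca
Notch3: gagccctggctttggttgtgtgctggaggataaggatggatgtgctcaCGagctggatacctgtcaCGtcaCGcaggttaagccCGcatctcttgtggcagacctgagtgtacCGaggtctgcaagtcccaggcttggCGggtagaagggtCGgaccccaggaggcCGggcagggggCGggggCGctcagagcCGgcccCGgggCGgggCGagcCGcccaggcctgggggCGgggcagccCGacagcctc
Notch4: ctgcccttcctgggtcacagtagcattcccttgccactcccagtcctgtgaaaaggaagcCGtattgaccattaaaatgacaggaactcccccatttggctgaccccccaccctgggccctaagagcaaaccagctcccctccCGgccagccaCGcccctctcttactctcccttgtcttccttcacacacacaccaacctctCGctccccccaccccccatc
Dll4: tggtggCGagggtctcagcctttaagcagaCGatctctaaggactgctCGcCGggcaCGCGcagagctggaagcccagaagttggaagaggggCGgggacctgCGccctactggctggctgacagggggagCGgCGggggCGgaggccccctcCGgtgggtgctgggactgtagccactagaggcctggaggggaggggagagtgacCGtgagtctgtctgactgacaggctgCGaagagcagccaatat

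Notch2 held 34 CpGs in these 250 bases, Notch3 17, Notch1 16 and Dll4 14, and all 250 bases of each lay under a peak. Notch4 held 4 CpGs in 223 bases, of which 128 bases (57.4%) lay under a peak that ended before the start site. RefSeq gives 10 promoter windows for the 9 genes, from 250 bases before to 50 after a start site, since Dll1 has a pair of them. The ratio of observed to expected CpGs was lowest in the window of Notch4, at 0.214, and 23.8% of 21263 such windows of protein-coding genes were lower, while the median of all was 0.567. The ratio was highest at Jag2 (1.14, with 98.5% of windows lower) and Notch2 (1.04, with 94.6% lower), and lay between 0.573 and 0.959 in the other windows. The window of Dll3 held no base under a peak, with 11 CpGs in 300 bases and a ratio of 0.573, and that of Jag2 was covered over 188 bases (62.7%). All 300 bases were covered in the 7 windows of Notch1, Notch2, Notch3, Dll1, Dll4 and Jag1. The share of all windows covered in full was not computed. Every window but that of Dll3 overlapped a peak by some amount, beside 60.5% of all windows.

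Short motifs were searched on both strands of the 10 windows. TGGGAA, the core bound by RBPJ, was not present in any of them, and 24.5% of all windows hold it. CAGCTG, an E-box of the kind bound by myogenic bHLH factors, was present in 1 window of Dll1 and in those of Dll3 and Jag1 (15.6% of all windows hold it), and TGANTCA, the AP-1 motif, in the same window of Dll1 and in that of Notch4 (6.99% of all). No match overlapped another. These are matches of letters within 300 bases, and the absence of a match covers only this window.

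All 9 genes had a promoter peak, defined as a peak within 3 kb of any annotated start site (TSS) of the gene, beside 67.8% of all protein-coding genes. A peak lay over the TSS of the principal transcript, the main coding isoform, in 6 of 9 (Notch1, Notch2, Notch3, Dll1, Dll4 and Jag1), beside 57.9% of all, so that this count was near the background. The genes stood apart from each other in width. The widest promoter peak spanned 53370 bp at Notch2, 22371 bp at Notch3, 13768 bp at Notch1, 5957 bp at Dll1, 5235 bp at Jag1, 3971 bp at Notch4, 2332 bp at Dll4, 2072 bp at Dll3 and 1307 bp at Jag2. Notch1, Notch2 and Notch3 were thus above every ligand, and Notch4 lay among the ligands. Over the 14872 protein-coding genes that had any promoter peak the median was 3430 bp, with quartiles of 2242 and 4945 bp, so that Dll4, Dll3 and Jag2 were below this median and Dll3 and Jag2 below the lower quartile. A promoter peak of at least 5 kb was present in 5 of 9 genes (16.5% of all protein-coding genes), one of at least 10 kb in 3 of 9 (2.59% of all) and one of at least 20 kb in 2 of 9 (0.319% of all).

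**Figure D1:**
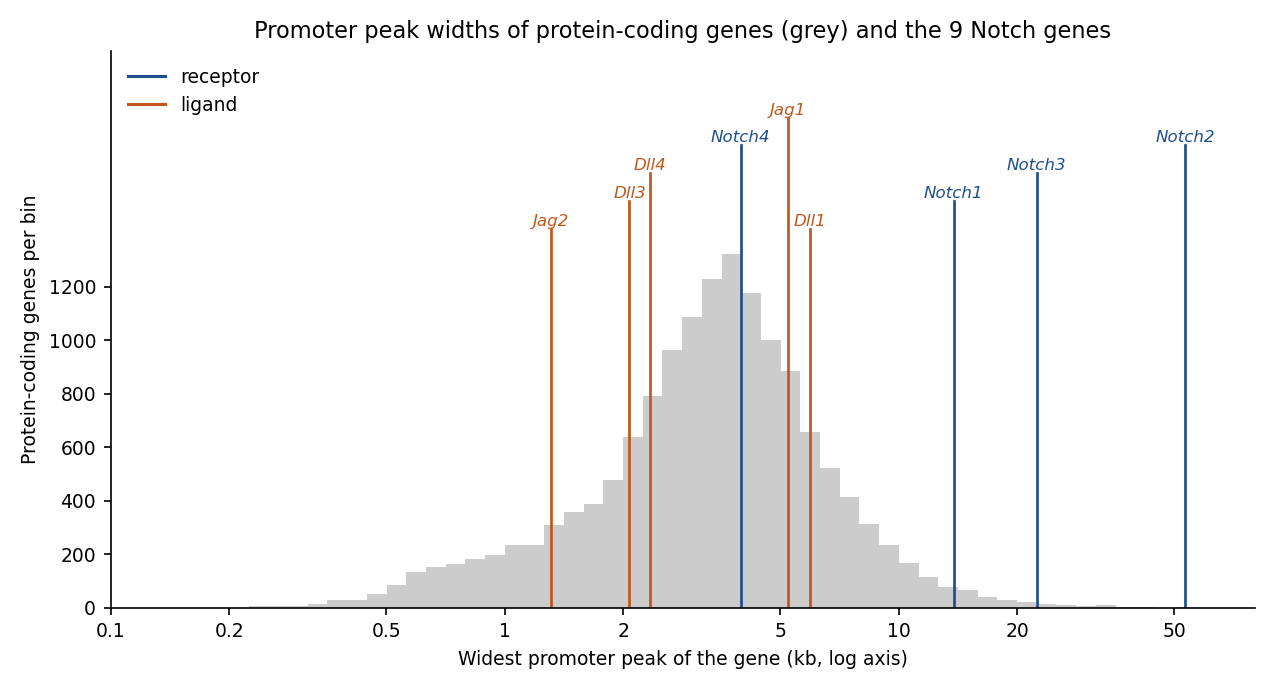
Histogram of the width of the widest promoter peak (kb, log axis) over the 14872 protein-coding genes that had one (grey, genes per bin), with vertical lines for the receptors (blue) and ligands (orange). Notch1, Notch2 and Notch3 lie in the upper tail, at 13768 bp and above, while Notch4 and the 5 ligands lie between 1307 and 5957 bp, within the bulk of the genes.

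The widest promoter peaks of Notch4 and Dll3 did not lie at the start of their coding transcripts. That of Notch4, at chr17:34585681-34589651, began 21413 bp downstream of the TSS and covered the 3' end of the gene, within 3 kb of the TSSs of the neighbours Gpsm3 and Pbx2, and counted as a promoter peak only through short annotated transcripts that start inside the gene. That of Dll3, at chr7:28289478-28291549, lay 10689 to 12760 bp downstream of the Dll3 TSS and covered the TSS of the neighbour Selenov. With the TSS of the principal transcript alone, the widest peak within 3 kb was 636 bp at Notch4, Dll3 had none, and the values of the other 7 genes were the same. Counted this way, 8 of 9 genes had a promoter peak.

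As groups, the receptors had a median widest promoter peak of 18070 bp (range 3971 to 53370, n = 4 genes) and the ligands of 2332 bp (range 1307 to 5957, n = 5 genes), a ratio of 7.75. The receptor genes were also longer, with a median of 52397 bp against 10179 bp. Among genes within 20% of their own length, the median widest promoter peak, with genes that lack one counted as 0, was close to 3 kb (3230 bp for Notch1, 3238 bp for Notch2, 3110 bp for Notch3 and 2770 bp for Notch4). A width as large as that of the receptor was reached by 27 of 1691 such genes for Notch1, by 0 of 918 for Notch2, by 3 of 1920 for Notch3 and by 762 of 2486 for Notch4. For the ligands, 156 of 2251 genes of like length reached the width of Dll1, 418 of 2224 that of Jag1, 1014 of 2250 that of Dll4, 996 of 2172 that of Dll3 and 1664 of 2480 that of Jag2. The median share of the gene body under peaks pointed the same way, at 34.7% for the receptors (11.6 to 55.2) and 18.4% for the ligands (11.8 to 92.3). The single genes did not follow it. No receptor was above every ligand, Dll1 (92.3%) and Jag1 (60.0%) were above all 4 receptors, and Notch4 was the lowest gene, at 11.6%. The share of exons touched by a peak pointed the other way, with a median of 14.0% for the receptors and 30.8% for the ligands (15.4 to 100), although the number of touched exons was alike, at a median of 4.5 and 4 exons. Genes are not replicates and were not tested against each other, so these medians are descriptions of 4 and 5 genes.

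**Figure D2:**
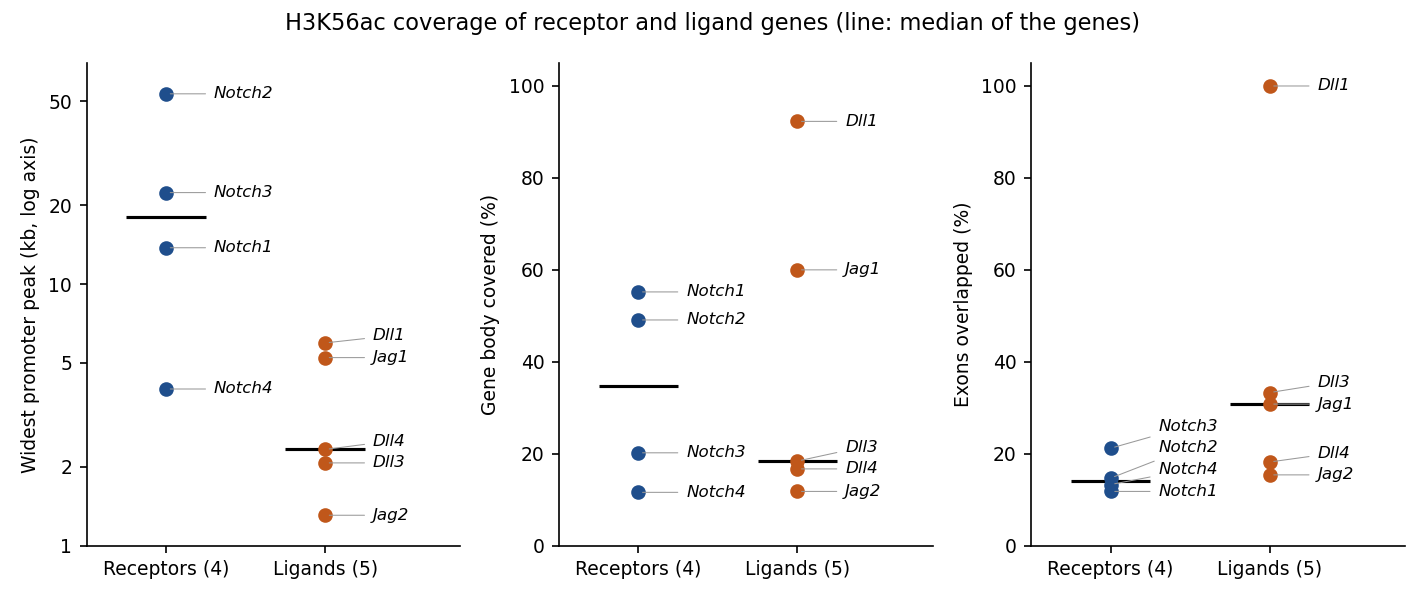
Widest promoter peak (kb, log axis), share of the gene body covered (%) and share of exons of the principal transcript overlapped (%) for each receptor (blue) and ligand (orange), with the median of the genes as a line. The receptor median is above the ligand median in the left and middle panels and below it in the right panel, where Dll1 reaches 100%, and the genes of the groups overlap in each panel (Notch4 lies among the ligands in the left one).

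Notch2, a receptor that together with Notch1 and Notch3 is expressed in MuSCs, is on chr3:98013527-98150361 (plus strand, ENSMUSG00000027878.11), and its promoter peak at chr3:98012739-98066108 ranked 1 among all protein-coding genes in width, ahead of Zbtb20 with 52538 bp. The peak was almost wholly downstream of the TSS, reaching from -799 to +52570 bp, so that 98.5% of it lay downstream. No other of the 12699 genes with a peak over the principal TSS reached as far into the gene, where the median reach was 1807 bp. It covered the whole of intron 1, which is 33956 bp long. Most exons of Notch2 were free of peaks. Only 5 of 34 exons were touched (exons 1 to 4 and exon 12), and 9.74% of exon bases were covered against 52.3% of intron bases. Intron 5 held a cluster of 4 peaks of 1430, 1982, 3570 and 776 bp between +73422 and +82009 bp, and the last 42836 bp of the gene held none. In all, 49.1% of the gene was covered, a share reached by 41 of 918 genes of like length (median 6.01%). The 20 kb downstream of the gene held no peak, and of the 20 kb upstream 17.7% were covered.

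Notch1, the receptor best known for T cell development and somite formation, is on chr2:26457903-26516663 (minus strand, ENSMUSG00000026923.15). Its promoter peak at chr2:26491660-26505427 reached from -1605 to +12162 bp around the principal TSS, and 95 of 12699 genes, Notch1 included, reached as far downstream. In width its neighbours in the ranking were Fam214a with 13770 bp and Ptprf with 13741 bp. The peak was the middle of a longer run. Upstream of it lay 7 peaks of 8720, 8340, 886, 7141, 1156, 1596 and 5737 bp between -37820 and -1808 bp, and downstream 2 peaks of 4156 and 4150 bp up to +20999 bp. The 7141 bp peak covered the start of a second coding transcript of Notch1, at -12841 bp. Of the 20 kb beyond this outer start, 91.3% were covered, a share reached by 74 of 21938 protein-coding genes, Notch1 included (median 7.56%). Where peaks less than 1 kb apart were joined, 7 peaks became one region of 39138 bp. None of these upstream peaks lay within 3 kb of the TSS of another protein-coding gene. Within the principal transcript only exons 1 to 4 of 34 were touched, and the next 24920 bp from +21000 to +45919 bp, which hold the other 30 exons, were free of peaks. Of the gene, 55.2% were covered, and 71 of 1691 genes of like length reached this share. The peaks downstream of Notch1 included 3 within 3 kb of the TSS of its neighbour Sec16a, 1 of which covered it.

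Notch3, a receptor known from vascular smooth muscle, is on chr17:32120820-32166852 (minus strand, ENSMUSG00000038146.8). Its promoter peak at chr17:32160748-32183118 lay mostly upstream, from -16266 to +6104 bp, which left 27.3% of it downstream of the TSS. Of 12699 genes, 13 (Notch3 included) reached as far upstream, where the median was 1323 bp, and 623 as far downstream. In width it ranked 50, between Stk40 with 22381 bp and Gxylt2 with 22361 bp. The single peaks over the TSS of Notch1 and Notch2 lay mostly the other way, with 88.3% and 98.5% downstream. At Notch1 further peaks lay upstream, and the joined region reached from -18138 to +20999 bp. Of the 20 kb upstream of Notch3, 84.4% were covered (reached by 114 of 21938 genes, Notch3 included). A second block lay past the other end of the gene, where 9 peaks of 707 to 2956 bp stood between +46665 and +67332 bp and 69.3% of the 20 kb downstream were covered (reached by 290 genes, median 2.86%). None of the 14 peaks in the window of Notch3 lay within 3 kb of the TSS of another protein-coding gene. Of the exons, 1 to 6 and the last, exon 33, were touched, the latter over 580 of 2041 bp, and 34985 bp from +9181 to +44165 bp held no peak. The covered share was lower than in Notch1 and Notch2, at 20.2%, and 382 of 1920 genes of like length reached it.

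Notch4, a receptor known from endothelial cells, is on chr17:34564268-34588503 (plus strand, ENSMUSG00000015468.14) in a gene-dense region. The peak nearest to its TSS was 636 bp wide and lay from -731 to -96 bp. From the TSS on, 21413 bp held no peak, and the only peak in the gene was the one at the 3' end, over exons 27 to 30. Of the 8 peaks in its window, 7 were within 3 kb of the TSS of another protein-coding gene and 6 covered one (of Gpsm3, Pbx2, Ager, Rnf5 or Agpat1). The covered share was 11.6%, and 1028 of 2486 genes of like length reached it. Notch4 was thus the only receptor with no peak over its principal TSS or in intron 1.

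**Figure D3:**
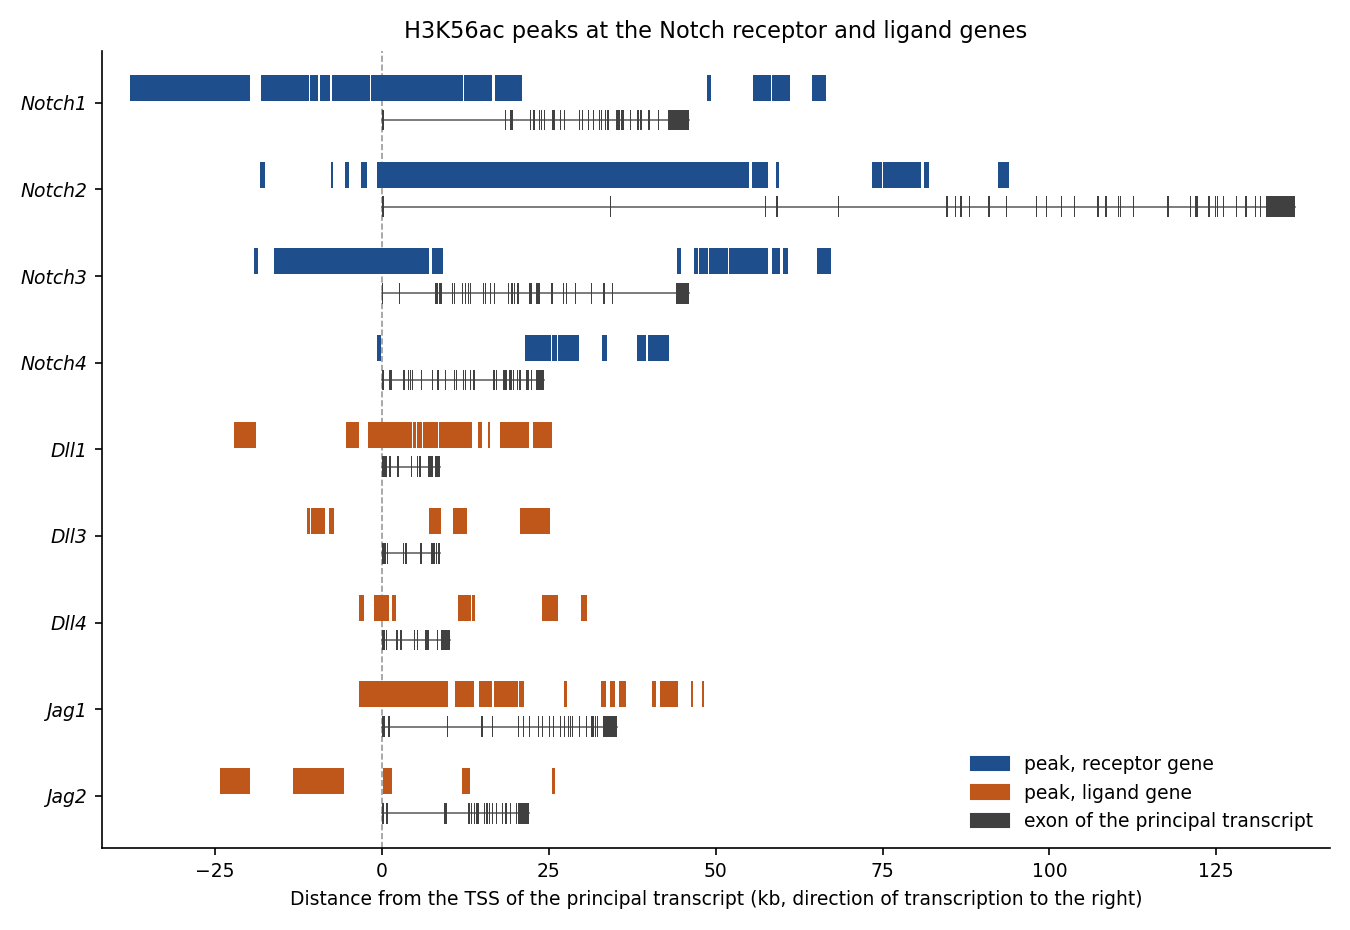
Peaks (boxes, blue for receptors and orange for ligands) and exons of the principal transcript (dark grey) of the 9 genes against the distance from the principal TSS (kb, transcription to the right). The broad regions of Notch1 and Notch3 extend upstream of the TSS and that of Notch2 downstream to +52570 bp, while the exons of the 3 genes beyond the first few are nearly free of peaks.

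Exons 1 to 4 lay whole under peaks in Notch1, Notch2 and Notch3, as they did in Dll1 and Jag1, and these exons had lengths of 325, 79, 263 and 339 bp in Notch1, 234, 82, 260 and 336 bp in Notch2, and 177, 82, 143 and 339 bp in Notch3. Notch3 was also covered over exons 5 and 6, and past exon 6 only exon 12 of Notch2 and exon 33 of Notch3 were touched in these 3 receptor genes. Over the 4 receptors 20 of 131 exons (15.3%) were touched and over the 5 ligands 28 of 83 (33.7%). The median share per gene was 10% over all protein-coding genes, but it differed with the number of exons. Over genes with as many exons it was 2.94% for Notch1 and Notch2, 3.03% for Notch3 and 3.33% for Notch4. For the ligands it was 7.69% (Jag1 and Jag2), 9.09% (Dll1 and Dll4) and 11.1% (Dll3). Among genes with as many exons, the share of Notch1 was reached by 4 of 38, that of Notch2 by 3 of 38, that of Notch3 by 6 of 53 and that of Notch4 by 17 of 86. Among the ligands, the share of Dll1 was reached by 9 of 811, that of Jag1 by 7 of 110, that of Jag2 by 22 of 110, that of Dll3 by 235 of 1051 and that of Dll4 by 397 of 811.

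**Figure D4:**
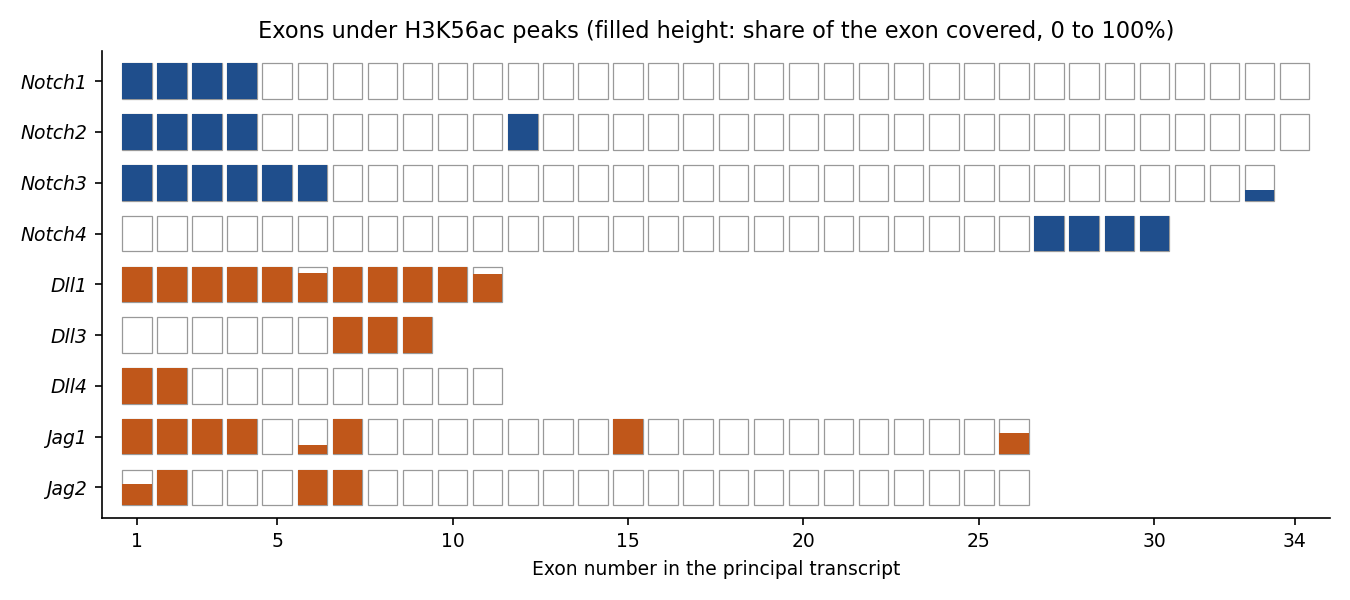
Exons of the principal transcript in order (1 box per exon) with the filled height giving the share of the exon under peaks, from 0 to 100%, for the receptors (blue) and ligands (orange). Exons 1 to 4 are filled in Notch1, Notch2, Notch3, Dll1 and Jag1, the last 4 exons in Notch4 and the last 3 in Dll3.

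Dll1, a Delta-like ligand that activates Notch and acts in somite patterning and myogenesis, is on chr17:15367354-15376872 (minus strand, ENSMUSG00000014773.13). It was the most densely covered of the 9 genes. Peaks covered 92.3% of it, a share reached by 23 of 2251 genes of like length (median 12.6%), and touched all 11 exons, of which 9 were covered whole. Exon 6 was covered over 107 of 131 bp and exon 11 over 534 of 682 bp. The TSS peak at chr17:15372115-15378071 was 5957 bp wide, from -2095 to +3861 bp, and also covered the start of a second coding transcript at -896 bp. It was followed without gaps of 1 kb by further peaks, so that 9 peaks joined into 18335 bp from -2095 to +16239 bp. Of the 20 kb downstream, 64.5% were covered, which 421 of 21938 genes reached.

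Jag1, a ligand of the Jagged type with an extra cysteine-rich domain, is on chr2:137081456-137116644 (minus strand, ENSMUSG00000027276.7) and had the most peaks, 16 in the window and 11 in the gene. Its TSS peak at chr2:137114818-137120052 was 5235 bp wide, from -3408 to +1826 bp. It was separated by 1 bp from a peak of 1460 bp and that by 24 bp from a peak of 6552 bp, so that the width of 5235 bp rests on a gap of 1 bp, and the joined region spanned 13272 bp. Of the gene body, 60.0% was covered, which 54 of 2224 genes of like length reached (median 8.36%), and 8 of 26 exons were touched (1 to 4, 6, 7, 15 and 26). None of its 16 peaks lay within 3 kb of another protein-coding TSS. Dll1 and Jag1, with Notch1, were the 3 of 9 genes covered to at least 50%, beside 9.90% of all protein-coding genes. Over the principal transcript alone, without the stretch up to its outer start, Notch1 was covered to 44.6% and no longer reached 50%, while with peaks less than 1 kb apart joined Notch2 reached it as well, at 50.1%.

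Dll4, the Delta-like ligand best known from sprouting blood vessels, is on chr2:119325784-119335962 (plus strand, ENSMUSG00000027314.6). Its TSS peak at chr2:119324504-119326835 reached from -1280 to +1051 bp and was narrower than the median of such peaks, 3439 bp. A peak of 644 bp followed, and the remaining 8097 bp of the gene held none, so that 16.7% of the gene and 2 of 11 exons were covered, which 950 of 2250 genes of like length and 397 of 811 genes with as many exons reached. Jag2, the other Jagged ligand, is on chr12:112907819-112929776 (minus strand, ENSMUSG00000002799.6), and its promoter peak of 1307 bp at chr12:112928327-112929633 began 143 bp downstream of the TSS, within exon 1, of which 215 of 358 bp were covered. Its window held a wider peak of 7780 bp between -13419 and -5640 bp, over the TSS of the neighbour Nudt14. Of Jag2, 11.8% was covered and 1046 of 2480 genes of like length reached this share. Both ligands thus lay near the middle of the genes of their length, with 57.8% of these below them in each case.

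Dll3, a divergent ligand that acts inside the cell and inhibits Notch rather than activating it, is on chr7:28293553-28302238 (minus strand, ENSMUSG00000003436.11). It was the only one of the 9 genes with no peak within 3 kb of the principal TSS. The nearest peak was 1728 bp wide and began 7085 bp downstream, over exons 7 to 9 at the 3' end of the gene. All 6 peaks in its window lay within 3 kb of the TSS of a neighbour (Timm50, Selenov or Eid2b). The covered share of 18.4% was reached by 883 of 2172 genes of like length.

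The merged intervals left small gaps within what the map shows as broad regions. The gaps summed to 1434 bp of 39138 bp at Notch1, 532 bp of 58587 bp at Notch2, 448 bp of 25447 bp at Notch3, 2654 bp of 18335 bp at Dll1 and 25 bp of 13272 bp at Jag1. After joining, Notch1, Notch2 and Notch3 were still above every ligand, and the joined widths of Notch1, Dll1 and Jag1 were more than 1.5 times their single peaks. The widest promoter peak of Notch4, at the 3' end of the gene, also grew from 3971 to 8136 bp on joining. At Dll4 the joined region was 3362 bp and at Jag2 no other peak was joined.

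Of the other genes of the pathway, grouped by role, 43 of 44 had a promoter peak, beside 67.8% of all protein-coding genes. Neurl3 was the one without. The median width was 3936 bp over these 43. A promoter peak of at least 5 kb was present in 17 of 44 (16.5% of all protein-coding genes). One of at least 10 kb was present in 4 (2.59% of all) and one of at least 20 kb in 1 (0.319% of all). The 6 target genes had the largest median, 6597.5 bp, from 2924 bp at Nrarp, a feedback inhibitor, to 14439 bp at Heyl, a bHLH repressor. The 5 genes for ligand endocytosis reached from no peak to 15001 bp at Mib1, the ubiquitin ligase that lets ligands be internalised. The 5 glycosyltransferases, which modify the receptors' EGF repeats, reached from 1463 bp at Mfng to 7676 bp at Pofut1. The 9 processing proteases and their partners reached from 2473 bp at Aph1a to 12605 bp at Psen2, both parts of gamma-secretase, and the 9 genes of the nuclear complex included Maml3 with 2878 bp and Rbpj with 7539 bp. The 10 inhibitors and turnover factors reached from 732 bp at Dlk1 to 24026 bp at Dtx4. No gene of these 44 had a promoter peak as wide as that of Notch2, and Dtx4 alone exceeded Notch3.

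**Figure D5:**
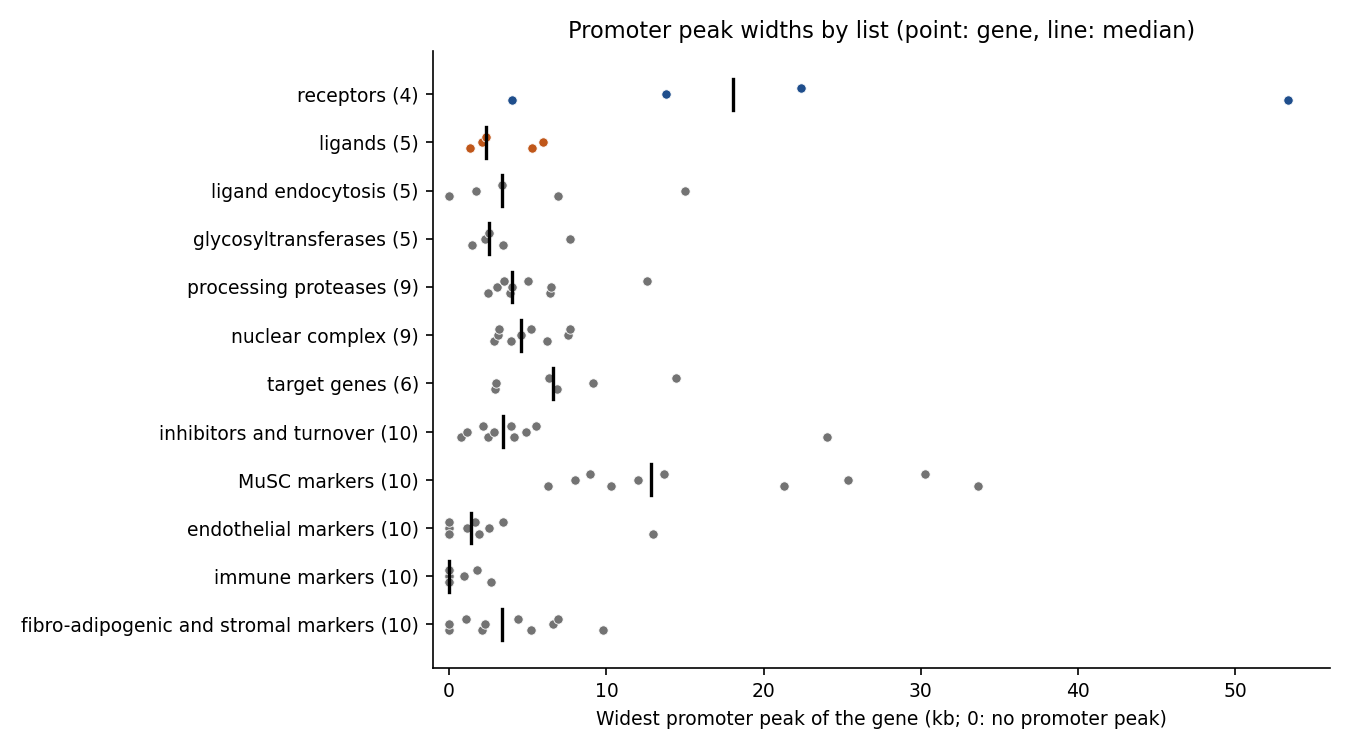
Widest promoter peak (kb, 0 for none) of each gene of the receptor (blue) and ligand (orange) lists, the other pathway lists and the cell type marker lists (grey), with the median as a line and the number of genes in brackets. The receptor median of 18070 bp lies above those of all other lists shown, including the MuSC markers at 12834 bp, while the ligand median of 2332 bp lies below those of all pathway lists.

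The labelled cell type was checked against marker genes. All 10 MuSC markers had a promoter peak, beside 67.8% of all protein-coding genes. Their median was 12834 bp, from 6296 bp at Cxcr4 to 33642 bp at Megf10. Of 10 endothelial markers 6 had a promoter peak, which was near the share of all genes. In 3 it lay over the principal TSS, beside 57.9% of all protein-coding genes. The median was 2208 bp over these 6 genes (1388 bp over all 10, with those that lack one counted as 0). Cdh5, Tie1, Emcn and Erg had none, Kdr had one of 1139 bp, and Tek had one of 12975 bp. Of 10 immune markers 3 had one (up to 2636 bp at Cd68) and Ptprc had none, and of 10 fibro-adipogenic and stromal markers 8 had one, with a median of 4814.5 bp over these 8 genes (3333.5 bp over all 10) and up to 9775 bp at Dpt. Notch4 and Dll4 are genes that endothelial cells also use, and Dll1, Jag1 and Notch3 are used by several cell types of muscle. The sort removed CD31+ and CD45+ cells, and re-analysis of sorted cells in the study found them to be mostly but not wholly of the sorted gate. The part of other cells in these peaks was not tested.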

How the data were processed

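H3K56ac was measured by ChIP-seq in 8 libraries (2 H3K56ac and 2 input libraries each for Control and Sirt6mKO). The authors checked reads with FastQC, trimmed them, aligned them to mm10 with Bowtie, allowing a single alignment per read, discarded duplicate reads, called peaks with MACS2, removed blacklisted regions and merged overlapping peaks. The deposited file holds the merged intervals as positions, with a score of 0 in each row and no counts, heights or p-values. Which libraries entered it is not given in the sources used here. No other file was analysed here.

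All values were computed with Python 3.11.15 and numpy 2.4.6 from the intervals and GENCODE M21. The principal transcript was that with the best APPRIS tag, then the longest spliced length. An overlap needed 1 bp. A promoter peak overlapped 3 kb on either side of any annotated TSS, and genes of like length were protein-coding genes within 20% of the length. Shares beside the members' counts are over all 21938 protein-coding genes. Distances in bp are from the principal TSS, and coordinates are 1-based. Promoter sequences are from RefSeq (GRCm38.p6). The interval functions were tested on simulated data against direct counting (200 cases, 0 mismatches). Named were the 9 genes, neighbours that share their peaks or windows, genes next to them in width, and the extremes of fixed lists, except an item that is not reported here. Members and lists were chosen with earlier results of these data known. With no values per sample, no test was run.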

Additional observations from a re-analysis of the deposited data

How the results depend on the processing

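The 5 summary values were recomputed under 25 alternatives, and 21 of these gave a value in the same direction and within 1.5 times. The ratio of receptor to ligand median promoter peak width was 7.75 and reached 9.61 with peaks less than 1 kb apart joined. It stayed at exactly 7.75 with another promoter reach, TSS set or minimum width. The medians rest on Notch1, Notch3 and Dll4, whose peaks lie over the principal TSS, so these settings could not alter those peaks. The difference in median covered share was 16.2 percentage points and ranged from 14.0 (principal transcript) to 19.4 (with flanks). The difference in the median share of exons touched, -16.7 percentage points, was -9.06 where only exons covered whole were counted. In both counts the ligand median was the value of Jag1, which was 30.8% for touched exons and 23.1% for whole ones. Exons 6 and 26 of Jag1 were touched but not covered whole. By construction, the 97 peaks became 43 within the gene bodies alone, 148 with 50 kb on either side and 47 after joining. No value reversed.

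No paired analysis was possible because the intervals come without values for single libraries, which also means that no library was left out in turn. Peak height, reproducibility between libraries and the effect of Sirt6 deletion were not analysed here, and whether a wide interval was 1 peak or several in single libraries was not tested.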

Other observations

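The Notch target genes other than Hey2 were covered over nearly their whole length. The median covered share was 99.9% over the 6 genes, beside 7.82% over all protein-coding genes. The target genes were not compared with genes of like length. Their TSS peaks spanned 6328 bp at Hes1 and 2924 bp at Nrarp, a gene with 1 exon. Hes1, Hes5 and Hey1 were covered over 100% and Heyl, with 99.2%, had the widest promoter peak of the list, while Hey2 was covered over 9.29%. Dtx4, a ubiquitin ligase of the Deltex family, was covered over 98.3%, but the 24026 bp peak did not lie over its principal TSS, which was covered by a peak of 2481 bp.

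Over the 9 gene windows, the RBPJ core TGGGAA occurred 1.27 times per kb inside peaks (270.6 kb) and 1.11 times per kb outside them (440.8 kb), beside 1.07 per kb in all peaks of the list. The widest peak of Notch2 held 58 matches (1.09 per kb), that of Notch3 30 (1.34 per kb) and that of Notch1 20 (1.45 per kb). The E-box CAGCTG occurred 0.698 times per kb inside and 0.690 outside, and the AP-1 motif TGANTCA 0.285 and 0.302 times. These are counts of letters in few regions and were not tested.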
